A study of Homo sapiens with 4 samples.

Results

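Matrix metalloproteinases (MMPs) and their tissue inhibitors (TIMPs) were examined in A549 cells, an established human lung adenocarcinoma line, as 10 genes: MMP1, MMP2, MMP7, MMP9, MMP10, MMP14, MMP15, TIMP1, TIMP2 and TIMP3. These 7 MMP and 3 TIMP genes were taken by symbol from 19775 genes with a probe set of their own on Affymetrix Human Genome U133 Plus 2.0 arrays. They were chosen by their signals on these same arrays, so the differences between arrays that follow describe the genes and test nothing. All 10 genes were measured, by 21 probe sets in all. The 5 genes MMP1, MMP7, MMP9, MMP10 and TIMP1 had 1 probe set each, and the other 5 had several.

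The 4 arrays came from cells that received siRNA against ARRB1 (the gene of β-arrestin-1, a scaffold protein of G-protein-coupled receptors; the labels write Beta arrestin siRNA) and then nicotine, ARRB1 siRNA with serum starvation, control siRNA with nicotine, and control siRNA with serum starvation. All cells were kept without serum for 36 h after transfection, and those given nicotine had 1 µM for 24 h. Whether the serum starved cells were collected at the same hour is not given in the sources used here. There was 1 array for each condition, so no value has a replicate error. No test was made: a fit of siRNA and nicotine as additive terms would leave 1 residual degree of freedom, and the genes were chosen on these contrasts. The siRNA sequence is not given in the sources used here, and ARRB1 was lowered and not deleted.

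MMPs are zinc-dependent proteases that are made as inactive precursors and cut collagens, other matrix proteins and growth factor precursors once activated. TIMPs bind the active site of MMPs and block it, and some also take part in activation at the cell surface. In lung tumours both are made by cancer cells and by stromal cells, and MMP7 in particular is made by epithelial cells. Many MMP promoters hold a TATA box and a site for AP-1, the factor formed by Fos and Jun proteins.

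Each value below is a MAS5 signal, a linear intensity that combines the probes of 1 probe set. The median signal of an array was between 68.6 and 73.3. Each gene is given by its brightest probe set, and 12521 genes with a mean signal on the log2 scale of at least 66.3, the median over probe sets, are called expressed. Of the 10 MMP and TIMP genes 9 passed this limit and MMP10 did not. A difference is log2 of the first condition minus log2 of the condition it is set against. The SD given with it is that of the same difference over the 1000 probe sets nearest in signal, which describes the spread between 2 arrays and is no replicate error. It is taken around the mean of those probe sets, so a shift that they share is not part of it. The limit of 2-fold is the one the submitters' notes give. As a check of the siRNA, 6 of the 7 probe sets of ARRB1 were lower after it in each pair, with a median of 65.7% of the control siRNA signal in the nicotine treated pair and 54.2% in the serum starved pair. All 6 epithelial marker genes listed for A549 were above the array median on every array. Among them CDH1, which encodes E-cadherin, had signals of 2827 and 3201 with ARRB1 siRNA against 4812 and 5218 with control siRNA, with nicotine first, and differences of -0.77 (SD 0.26) and -0.71 (SD 0.24). EPCAM was lower too (-0.28 and -0.02), while KRT7, KRT8, KRT18 and KRT19 were higher in both pairs. The median of the 6 genes was 0.16 and 0.05. Their summed signal was 75255 and 61108 with ARRB1 siRNA and 64487 and 58388 with control siRNA, with nicotine first. Of 4 macrophage and leukocyte markers none was expressed, and their summed signal was 162 and 167 with ARRB1 siRNA and 166 and 115 with control siRNA. Of 6 fibroblast markers COL1A1 and DCN were expressed. The summed signal was 785 and 752 with ARRB1 siRNA and 688 and 663 with control siRNA, each with nicotine first. COL1A1 was higher with ARRB1 siRNA in both pairs (0.30 and 0.37). DCN, COL1A2, COL3A1 and LUM were lower in both pairs, and PDGFRB was higher in the nicotine treated pair and lower in the serum starved pair. PECAM1 was the expressed marker among 3 of endothelium, whose summed signal was 261 and 219 with ARRB1 siRNA and 188 and 199 with control siRNA. In RNA of a whole culture, a smaller share of cells that make a transcript cannot be told apart from less transcript per cell. Under the array medians, the leukocyte marker PTPRC had signals of 25.9 and 35.9 with ARRB1 siRNA against 12.1 and 4.16 with control siRNA. The endothelial marker VWF had 51.0 and 29.7 against 24.7 and 8.60. The SD of the difference was 1.6 in each pair for PTPRC, and 1.4 and 1.3 for VWF, with nicotine first. Both differences were within it in the nicotine treated pair and exceeded it in the serum starved pair. Of the other leukocyte and endothelial markers, LYZ was also higher in both pairs. CD14, CSF1R, PECAM1 and CDH5 were each higher in 1 pair and lower in the other. The part of these markers and of CDH1 in the MMP and TIMP differences was not tested.

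MMP1, MMP10 and MMP7 lie near each other on chromosome 11. In the RefSeq annotation of GRCh38.p14 the order of the 9 MMP genes there is MMP7, MMP20, MMP27, MMP8, MMP10, MMP1, MMP3, MMP12 and MMP13. The promoters of MMP10 and MMP7 are shown because these nearby genes had differences of opposite sign between the siRNAs. Both are the 250 bases before the gene start, from RefSeq (GRCh38.p14), written 5′ to 3′ on the minus strand that the genes use. Capitals mark the TATA box and, in MMP7, the AP-1 site.
MMP10, chr11:102780629-102780878: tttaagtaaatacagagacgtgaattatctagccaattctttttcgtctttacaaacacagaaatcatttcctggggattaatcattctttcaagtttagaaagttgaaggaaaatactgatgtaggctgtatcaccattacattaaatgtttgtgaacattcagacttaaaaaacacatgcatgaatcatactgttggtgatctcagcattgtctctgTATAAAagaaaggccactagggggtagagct
MMP7, chr11:102530748-102530997: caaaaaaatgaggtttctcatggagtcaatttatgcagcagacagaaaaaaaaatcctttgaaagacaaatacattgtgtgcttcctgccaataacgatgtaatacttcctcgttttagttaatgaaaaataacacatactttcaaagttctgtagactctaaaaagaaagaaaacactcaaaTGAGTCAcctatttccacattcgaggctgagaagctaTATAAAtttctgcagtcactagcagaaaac
The motifs searched were TGAGTCA or TGACTCA for AP-1, AGGAAG or CTTCCT for the ETS factor PEA3, and TATAAA or TTTATA for the TATA box, each pair being the 2 strands of 1 site. The MMP7 stretch holds TGAGTCA with its first base 67 bases before the start, TATAAA at 30 bases and CTTCCT at 169 and 145 bases, none of them overlapping. The MMP10 stretch holds TATAAA at 31 bases and neither of the other motifs in this window. Promoter sequences of 6 of the 10 genes were used here. Of the other 4 of these, TIMP1 holds AGGAAG at 87 bases, and the windows of MMP14, MMP15 and TIMP3 hold none of the motifs. Among 35116 windows of the same length, 4.2% hold the AP-1 letters, 28.7% the PEA3 letters and 10.7% the TATA letters. These are matches of letters and not measured sites.

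With ARRB1 siRNA, 3 of the 10 genes were at least 2-fold higher than with control siRNA in the nicotine treated pair, and 4 were in the serum starved pair. MMP1, MMP9 and MMP10 were higher in both pairs, and TIMP3 passed the limit in the serum starved pair. Among all 12521 expressed genes 0.879% were at least 2-fold higher in the nicotine treated pair and 1.01% in the serum starved pair. None of the 10 was at least 2-fold lower in either pair, where 1.4% and 0.783% of the expressed genes were, so a count of 0 says nothing particular of these genes. The percentage that was higher in both pairs was 0.168%. Since MMP10 is below the limit for expressed genes, the fitting comparison for it is the 7254 genes below that limit, of which 5.43% were at least 2-fold higher in both pairs. The genes were chosen on these contrasts, and nothing is read from the counts. Nor is anything read from whether the arrays of the 2 siRNAs overlap, since the share of all genes without overlap was not counted. The median difference of the 10 genes was 0.46 in the nicotine treated pair and 0.11 in the serum starved pair, while that of the expressed genes was 0.02 in each.

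**Figure D1:**
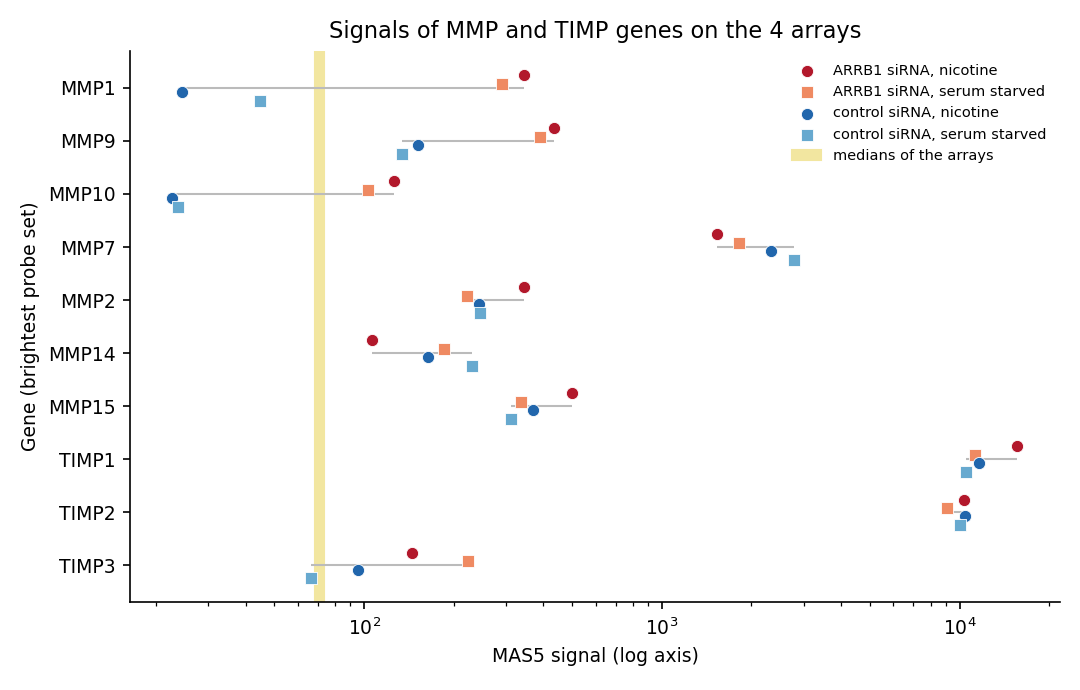
MAS5 signal (log axis) of the brightest probe set of each of the 10 genes on the 4 arrays, with a grey line from the lowest to the highest signal and a band over the medians of the arrays. Both ARRB1 siRNA arrays (reds) lie above both control siRNA arrays (blues) for MMP1, MMP9, MMP10 and TIMP3, and below them for MMP7. How many of all expressed genes separate in this way was not counted.

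MMP1, the interstitial collagenase that cuts fibrillar collagens, had the widest range of signals among the 10 genes. Its signal was 345 with ARRB1 siRNA and nicotine and 291 with ARRB1 siRNA in starved cells, against 24.5 with control siRNA and nicotine and 44.5 with control siRNA in starved cells. Both ARRB1 siRNA arrays were thus above both control arrays, which were themselves under the median signal. The difference was 3.82 (SD 0.56) in the nicotine treated pair, which is 14.1-fold, and 2.71 (SD 0.56) in the serum starved pair, which is 6.54-fold. MMP1 passed the limit for expressed genes through its ARRB1 siRNA arrays. The size of the difference rests on the dim control signals: with all signals under the median of all values (70.7) raised to it, the differences were 2.29 and 2.04.

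MMP9, gelatinase B, which cuts denatured and basement membrane collagen, was above the array median in all conditions and differed by nearly the same size in both pairs. Its signal was 436 with nicotine and 390 in starved cells after ARRB1 siRNA, against 151 with nicotine and 134 in starved cells after control siRNA. The groups did not overlap. The difference was 1.53 (SD 0.40) in the nicotine treated pair and 1.54 (SD 0.39) in the serum starved pair, or 2.88-fold and 2.91-fold. MMP9 had rank 12 from the highest of the expressed genes by its mean difference.

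MMP2, gelatinase A, which TIMP2 and MMP14 together activate at the cell surface, did not follow MMP9. Its brightest probe set had signals of 344 with nicotine and 222 in starved cells after ARRB1 siRNA, against 244 with nicotine and 245 in starved cells after control siRNA. The groups overlapped, with the highest and the lowest signal both in ARRB1 siRNA cells. The difference was 0.49 (SD 0.41) in the nicotine treated pair and -0.14 (SD 0.39) in the serum starved pair. MMP2 also had 2 dim probe sets under the median on all arrays. One of them, 1566677_at, had signals of 34.9 and 22.0 with ARRB1 siRNA and 3.96 and 13.3 with control siRNA (nicotine first), with a difference of 3.14 (SD 1.56) in the nicotine treated pair. The other, 1566678_at, had 39.1 and 51.8 with ARRB1 siRNA against 55.4 and 31.4 with control siRNA, so the probe sets of MMP2 gave no common direction.

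MMP10, stromelysin-2, which cuts proteoglycans and can activate other proMMPs, was below the limit for expressed genes over the 4 arrays and higher with ARRB1 siRNA. Its signal was 126 with nicotine and 103 in starved cells after ARRB1 siRNA, against 22.7 with nicotine and 23.6 in starved cells after control siRNA. Both control signals were under the median of their arrays, and the groups did not overlap. The difference was 2.47 (SD 0.84) in the nicotine treated pair and 2.13 (SD 0.82) in the serum starved pair, or 5.54-fold and 4.37-fold. With signals raised to the median of all values, the differences were 0.83 and 0.55 and no longer reached 2-fold.

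MMP7, matrilysin, a small MMP of epithelial cells that lacks the hemopexin domain, was the one with both ARRB1 siRNA arrays below both control arrays. Its signal was 1528 with nicotine and 1811 in starved cells after ARRB1 siRNA, against 2331 with nicotine and 2770 in starved cells after control siRNA. The differences of -0.61 (SD 0.29) in the nicotine treated pair and -0.61 (SD 0.23) in the serum starved pair exceeded the SD of their signal and stayed within 2-fold. MMP7 had rank 365 from the lowest of the expressed genes by its mean difference.

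**Figure D2:**
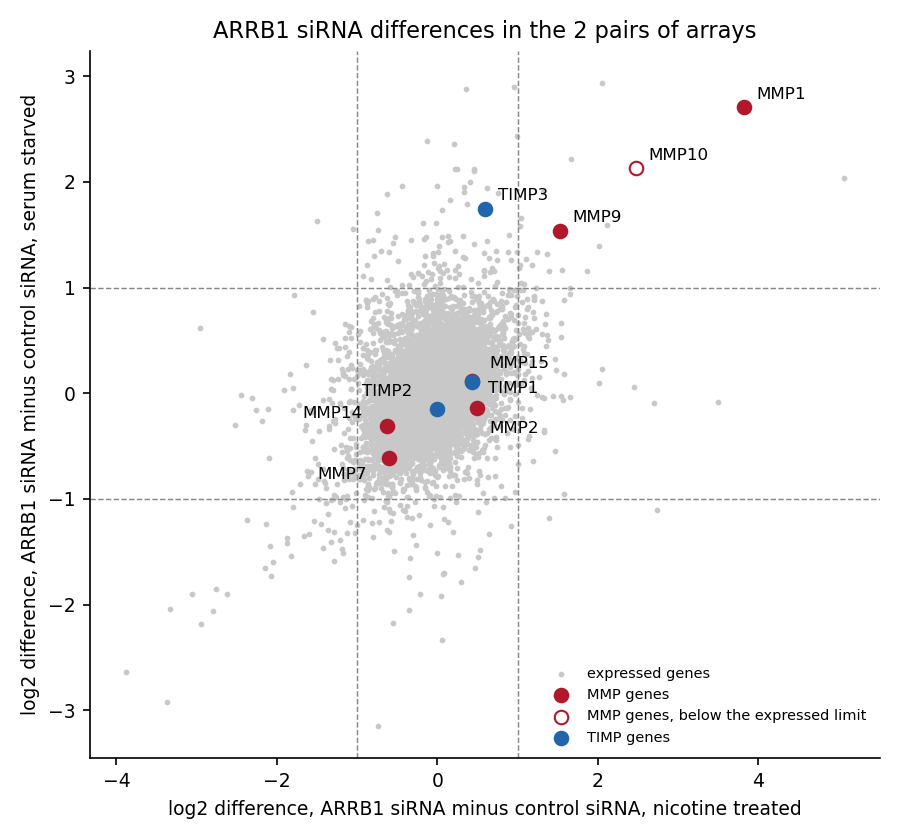
Log2 difference, ARRB1 siRNA minus control siRNA, in the nicotine treated pair (x axis) and in the serum starved pair (y axis) for the expressed genes (grey), the MMP genes (red, open where below the limit for expressed genes) and the TIMP genes (blue), with dashed lines at 2-fold. MMP1, MMP9 and MMP10 lie past both limits at the upper right, and TIMP3 passes the limit of the serum starved pair.

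The 6 other MMP genes of the chromosome 11 cluster (MMP20, MMP27, MMP8, MMP3, MMP12 and MMP13) were all below the limit for expressed genes, with signals under the median on each array. MMP20 and MMP13 were higher with ARRB1 siRNA in both pairs, though each was within its SD in 1 of them. MMP20, enamelysin, had signals of 8.50 and 14.8 with ARRB1 siRNA against 2.60 and 1.37 with control siRNA, and MMP13, collagenase-3, had 27.8 and 9.05 against 2.68 and 4.61, with nicotine first. MMP3, which lies beside MMP1 and encodes stromelysin-1, had signals of 7.16 and 27.6 with ARRB1 siRNA against 52.2 and 7.93 with control siRNA, with nicotine first. The arrays of both siRNAs overlapped for it. MMP8, the neutrophil collagenase beside MMP10, had 13.3 and 5.45 with ARRB1 siRNA against 7.42 and 57.3 with control siRNA, also with nicotine first. At the signals of these 6 genes the SD of a difference between siRNAs was above 1 on the log2 scale, and no order of the arrays is read from them.

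The membrane-type MMPs MMP14 and MMP15 are anchored in the plasma membrane, where MMP14 activates proMMP2. MMP14 had signals of 107 with nicotine and 186 in starved cells after ARRB1 siRNA, against 164 with nicotine and 230 in starved cells after control siRNA. The difference was -0.62 (SD 0.44) with nicotine and -0.31 (SD 0.42) in starved cells, and the siRNA groups overlapped. The next brightest probe set, 202827_s_at, had 50.8 and 57.7 with ARRB1 siRNA against 90.0 and 49.4 with control siRNA, and 2 further probe sets were dimmer. MMP15 had signals of 499 with nicotine and 337 in starved cells after ARRB1 siRNA, against 370 with nicotine and 310 in starved cells after control siRNA. Its differences of 0.43 (SD 0.40) and 0.12 (SD 0.37) were near or within the SD, and the groups overlapped. A second probe set of MMP15 had signals of 19.0 or less on every array.

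Of the inhibitors, TIMP1 and TIMP2 were within 1.5-fold between the siRNAs in both pairs. TIMP1, a secreted inhibitor that also binds proMMP9, had signals of 15658 with nicotine and 11308 in starved cells after ARRB1 siRNA, against 11637 with nicotine and 10523 in starved cells after control siRNA. The difference of 0.43 (SD 0.20) in the nicotine treated pair came from the highest of the 4 signals, and that of the serum starved pair was 0.10 (SD 0.18). With quantile normalization the 2 differences of TIMP1 were 0.26 and -0.01, and with centring on the array medians 0.52 and 0.03. TIMP2, which inhibits MMPs and bridges MMP14 to proMMP2, had signals of 10331 and 9068 with ARRB1 siRNA against 10395 and 10043 with control siRNA, with nicotine first. The differences were -0.01 and -0.15. Its probe set 224560_at had differences of -0.02 and 0.31, and 203167_at had -0.17 and -0.55 (SD 0.31), so the 3 probe sets had no shared direction in starved cells.

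TIMP3, the inhibitor that is held in the matrix and also blocks ADAM proteases, was higher with ARRB1 siRNA, mainly in starved cells. Its brightest probe set had signals of 144 with nicotine and 223 in starved cells after ARRB1 siRNA, against 95.5 with nicotine and 66.5 in starved cells after control siRNA. Both ARRB1 siRNA arrays were above both control arrays, the lowest of which was under the median. The difference was 0.59 (SD 0.53) in the nicotine treated pair and 1.75 (SD 0.48), or 3.36-fold, in the serum starved pair. TIMP3 had rank 36 from the highest of the expressed genes by its mean difference. The other 3 probe sets were dimmer: 201149_s_at had 60.7 and 58.7 with ARRB1 siRNA against 83.2 and 52.3 with control siRNA, a difference of -0.45 with nicotine and 0.17 in starved cells. Over all 4 TIMP3 probe sets the median difference was -0.10 in the nicotine treated pair and 0.96 in the serum starved pair, so the direction in the first and the 2-fold call in the second depend on which probe set is read.

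**Figure D3:**
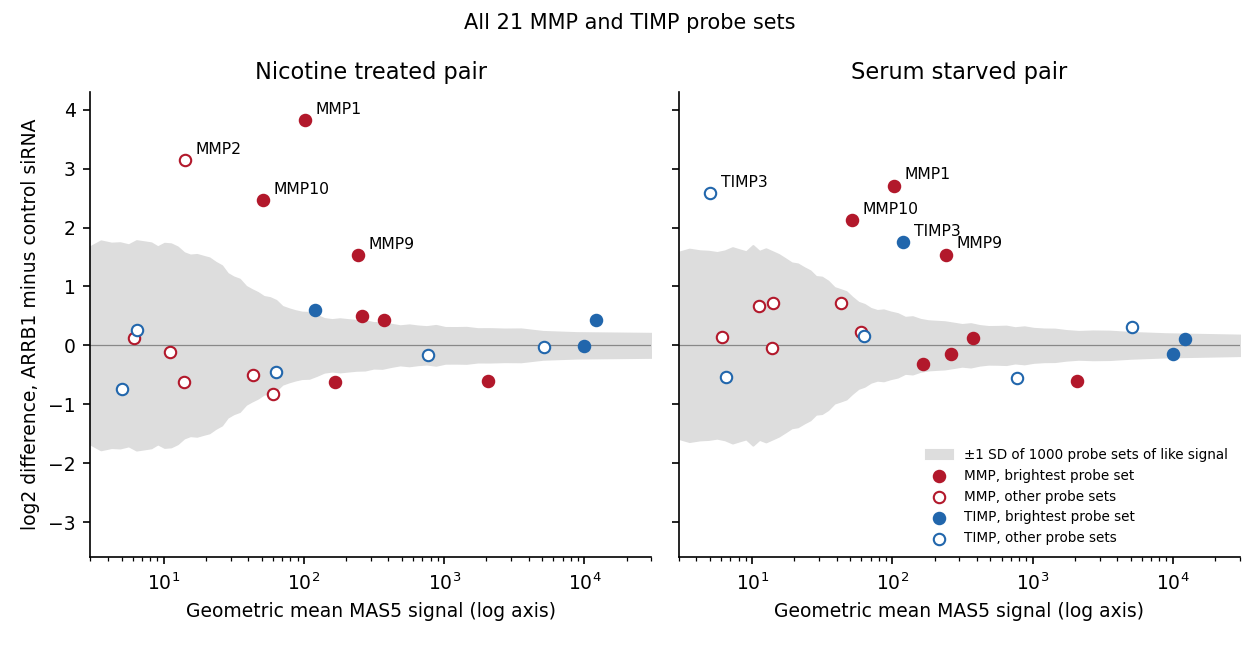
Log2 difference, ARRB1 siRNA minus control siRNA, of all 21 probe sets of the 10 genes against their geometric mean signal (log axis), in the nicotine treated pair (left) and the serum starved pair (right), with 1 SD of the 1000 probe sets of like signal in grey. Filled points are the brightest probe set of a gene. The differences of MMP1, MMP9, MMP10 and the brightest probe set of TIMP3 lie above the grey band in both panels, and that of MMP7 lies below it. Most dim probe sets lie inside the band.

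The effect of nicotine was read within each siRNA, as nicotine treated minus serum starved cells. No member of the family differed by 2-fold either way in ARRB1 siRNA cells or in control siRNA cells, where 1.45% and 1.05% of the expressed genes did. The median of the 10 genes was 0.22 in ARRB1 siRNA cells and 0.02 in control siRNA cells, while that of the expressed genes was -0.01 and -0.02.

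For MMP1 the nicotine difference was 0.25 (SD 0.51) in ARRB1 siRNA cells and -0.86 (SD 0.47) in control siRNA cells, where both signals were under the median. The gap of 1.11 (SD 0.69) between these differences came to 0.25 with signals raised to the median of all values. MMP9 had 0.16 and 0.17 and MMP7 -0.24 and -0.25, with ARRB1 siRNA first, so the nicotine difference of these genes was of the same size with either siRNA. MMP10 had 0.28 and -0.06, well within the SD of 0.84 and 0.82.

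MMP2 had a nicotine difference of 0.63 (SD 0.36) in ARRB1 siRNA cells and of 0.00 (SD 0.32) in control siRNA cells, a gap of 0.64 (SD 0.44). MMP14 had negative nicotine differences under both siRNAs, -0.80 (SD 0.42) in ARRB1 siRNA cells and -0.49 (SD 0.37) in control siRNA cells. Its median over all probe sets was 0.03 and 0.57, and of the 3 dimmer probe sets only 202827_s_at in ARRB1 siRNA cells had a negative difference (-0.18, SD 0.73). MMP15 had nicotine differences of 0.57 (SD 0.32) in ARRB1 siRNA cells and 0.25 (SD 0.27) in control siRNA cells, and its median over both probe sets was -0.35 and -0.11.

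TIMP1 had a nicotine difference of 0.47 (SD 0.19) in ARRB1 siRNA cells and of 0.15 (SD 0.11) in control siRNA cells. These came to 0.35 and 0.07 with quantile normalization and to 0.54 and 0.05 with centring on the array medians. TIMP2 had 0.19 (SD 0.19) and 0.05 (SD 0.11), with ARRB1 siRNA first. The TIMP2 difference in control siRNA cells was within its SD and came to -0.05 after centring of the arrays on their medians. It was -0.15 for probe set 203167_at and 0.47 (SD 0.15) for 224560_at, so the TIMP2 probe sets differed here. TIMP3 differed in sign between the siRNAs, with -0.63 (SD 0.48) in ARRB1 siRNA cells and 0.52 (SD 0.44) in control siRNA cells. This holds for its brightest probe set and for the dim 201150_s_at. Of the others, 201149_s_at had 0.05 and 0.67 and 201147_s_at had 1.34 and 0.55, positive with both siRNAs and within their SD.

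**Figure D4:**
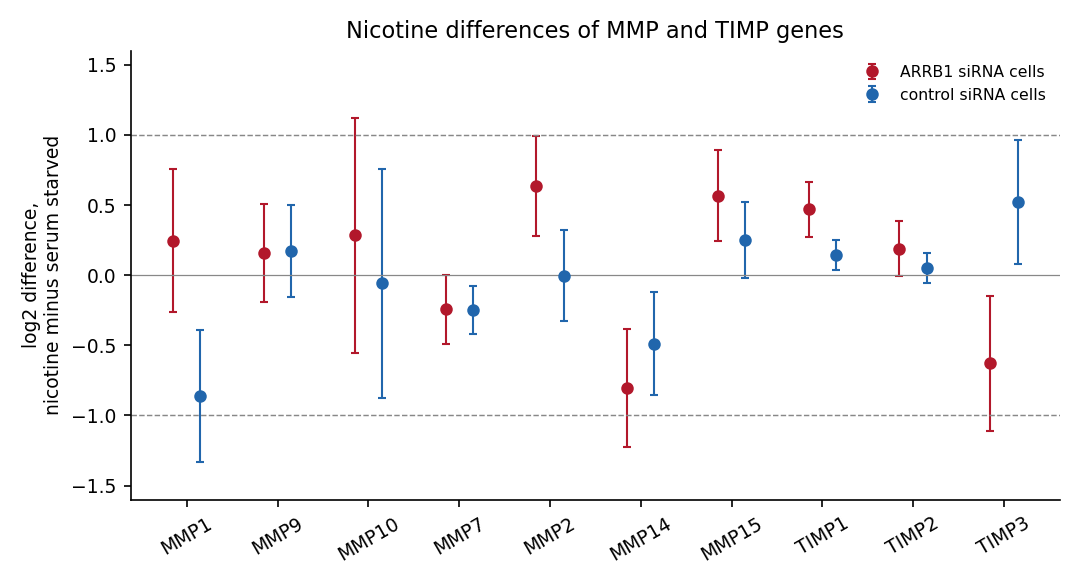
Log2 difference, nicotine treated minus serum starved, of the 10 genes in ARRB1 siRNA cells (red) and control siRNA cells (blue), with dashed lines at 2-fold. Bars are 1 SD of the 1000 probe sets of like signal and no replicate error. All points lie within 2-fold, the brightest probe set of MMP14 is below 0 with both siRNAs, and the brightest probe set of TIMP3 has opposite signs.

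Other genes that act with MMPs were listed by function. Of 15 other MMPs measured 7 were expressed, and 2 were at least 2-fold higher with ARRB1 siRNA in the nicotine treated pair, MMP28 and MMP11. Of all expressed genes 0.879% were at least 2-fold higher there. Either way, 2.28% passed 2-fold in that pair and 1.8% in the serum starved pair. A count of 0 in a short list thus says nothing particular of its genes. MMP28, epilysin, had signals of 127 and 125 with ARRB1 siRNA against 60.8 and 68.6 with control siRNA, with nicotine first, and differences of 1.06 and 0.86. MMP11, stromelysin-3, had 112 and 82.6 against 55.9 and 69.4, and differences of 1.00 and 0.25. The membrane-bound MMP17 went the other way, with differences of -0.37 and -0.98. The median of the 7 genes was 0.14 and 0.05.

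Among the other inhibitors, TIMP4 had differences of -0.09 and -0.05 and the membrane-bound RECK of 0.11 and -0.21, with the nicotine treated pair first. Neither passed 2-fold. Of 12 expressed ADAM and ADAMTS proteases 1, ADAM33, was at least 2-fold lower with ARRB1 siRNA in the nicotine treated pair, with a difference of -2.31 there and -0.04 in the serum starved pair. Its probe set ends in _x_at, a mark of probes that can detect other transcripts. ADAM19, a membrane sheddase, had signals of 394 and 408 with ARRB1 siRNA against 227 and 259 with control siRNA, with nicotine first, and differences of 0.79 and 0.65. In plasminogen activation, the cascade whose product plasmin activates proMMPs, none of 6 expressed genes passed 2-fold. PLAU, which encodes urokinase, had signals of 4067 and 3506 with ARRB1 siRNA against 2794 and 2249 with control siRNA, with nicotine first, and differences of 0.54 (SD 0.28) and 0.64. Its receptor PLAUR had differences of 0.47 and 0.25, and the median of the 6 genes was 0.37 and 0.20.

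None of 3 expressed proprotein convertases, which cut the propeptides of membrane-type MMPs and of other proteins, passed 2-fold. PCSK6 had differences of -0.57 (SD 0.57) and -0.60 (SD 0.60) with ARRB1 siRNA, PCSK7 of 0.85 and -0.21, and FURIN of 0.14 and -0.37. None of 6 MMP inducers and binding partners passed it either, among them the proteoglycan SPOCK1 with differences of 0.28 and 0.09 and the tetraspanin CD151 with 0.21 and 0.14. Of 15 expressed transcription factors that act on MMP promoters none passed 2-fold. RELA, a subunit of NF-κB, had signals of 1946 and 1946 with ARRB1 siRNA against 1340 and 1196 with control siRNA, with nicotine first, and differences of 0.54 and 0.70. FOS, a partner in AP-1, was lower with differences of -0.72 and -0.40. The median of the 15 factors was 0.10 in the nicotine treated pair and 0.06 in the serum starved pair. For nicotine, 1.45% of all expressed genes passed 2-fold in ARRB1 siRNA cells and 1.05% in control siRNA cells. None of the expressed genes on these lists outside the ADAM and ADAMTS proteases did. In that list ADAM33 had nicotine differences of -1.03 in ARRB1 siRNA cells and 1.24 in control siRNA cells, and ADAMTS4, an aggrecanase, was higher with nicotine in control siRNA cells by 1.15. No expressed gene of these lists was at least 2-fold different the same way in both pairs, where 0.495% of all expressed genes were. Below the limit, where MMP10 also lies, MMP20 (1.71, SD 1.72, and 3.43, SD 1.61) and ADAMTS1 (1.82, SD 1.68, and 3.63, SD 1.63) were, with signals of 29.5 or less on every array. Of all 7254 genes below the limit 5.43% were at least 2-fold higher in both pairs.

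Genes with the most similar signals over the 4 arrays were found by the distance between log2 signals centred on each gene's mean. For MMP1 the nearest was MARCHF4, a membrane ubiquitin ligase, at a distance of 1.04 on the log2 scale, with signals of 509 and 267 after ARRB1 siRNA against 15.2 and 64.9 after control siRNA, with nicotine first. It was followed by SEMA5B, CST1, LINGO3 and IL23A at distances of 1.32 to 1.58, so no expressed gene matched MMP1 closely. For MMP9 the nearest were SPINK6, PTX3, HBEGF, RBM34 and CASC7 at 0.27 to 0.39. HBEGF, a ligand of the EGF receptor that is shed by metalloproteinases, had signals of 832 and 794 after ARRB1 siRNA against 318 and 357 after control siRNA, and PTX3, a secreted pattern recognition protein, had 435 and 407 against 192 and 176, each with nicotine first.

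For MMP14 the nearest were HDAC11, FHIP1A, CXCL10, SIDT1 and TMOD2 at 0.07 to 0.12. CXCL10, a chemokine, had signals of 109 and 204 after ARRB1 siRNA against 184 and 256 after control siRNA, with nicotine first. It was thus lower with nicotine under both siRNAs, as the brightest probe set of MMP14 was, though not its dimmer ones. For TIMP3 the nearest was LCP1, an actin-bundling protein of leukocytes, at 0.15, with signals of 97.9 and 154 after ARRB1 siRNA against 63.7 and 40.0 after control siRNA, followed by PFKP-DT, GTF2IP20, LINC01875 and LOC101927166 at up to 0.32. With 4 arrays such closeness is a description, and all genes share the same arrays and their scaling.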

How the data were processed

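RNA of A549 cells was measured on 4 arrays, 1 for each condition, and the conditions were taken from the sample labels. The authors made the deposited signal intensities with MAS5 in GCOS 1.4, per the submitters' notes. These intensities, as deposited, are linear and were scaled to a mean of 500.1 on each array after 2% of probe sets is left out at each end. They are neither log2 transformed nor centred by gene, although the study's methods describe both. Detection calls were not used here.

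Log2 differences were computed with no floor on the signal (Python 3.11.15, with numpy 2.4.6, pandas 2.3.3). Of 54613 probe sets other than controls, 41091 had 1 gene symbol in GEO's platform annotation, 1801 had several and 11721 had none, and only the first kind was used. Symbols were updated through RefSeq gene identifiers. With 1 array per condition no test was made, and the nicotine treated and serum starved pairs were not taken as replicates. Procedures were tested on simulated data. Figures were drawn with matplotlib 3.10.9.

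Named genes are the 10 chosen genes, ARRB1, members of the function lists and genes with the nearest patterns. Of each function list these are up to 4 expressed genes with the largest mean siRNA difference. MMP genes of the chromosome 11 cluster, the cell type markers and ADAMTS1 were named after their values were seen. The 5 nearest patterns are given for expressed genes among the 10 whose signals span at least 2-fold. The members and lists were chosen with earlier results of these data known. Alternatives were centring on the median, quantile normalization, signal floors at the 25th percentile (16.5) and the median (70.7), limits of 1.5-fold and 3-fold, other filters on low signals, the median over probe sets, and leaving out _x_at probe sets.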

Additional observations from a re-analysis of the deposited data

Results flagged for a closer look

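TIMP3 had nicotine differences of opposite sign in cells with the 2 siRNAs, -0.63 in ARRB1 siRNA cells and 0.52 in control siRNA cells, each larger than the SD of probe sets with like signal (0.48 and 0.44). The gap of -1.15 (SD 0.62) between them was not tested. With each array centred on its median, quantile normalization or the floor at the median, the control siRNA value was 0.43, 0.42 and 0.43, just under its SD. Probe set 201149_s_at was positive with both siRNAs (0.05 and 0.67), as was 201147_s_at (1.34 and 0.55).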

How the results depend on the processing

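With a limit of 1.5-fold in place of 2-fold, 6 of the 10 genes passed it with ARRB1 siRNA in the nicotine treated pair (3 at 2-fold) and 5 passed it the same way in both pairs (3 at 2-fold), where 10.2% and 2.72% of the expressed genes did. For nicotine, 3 passed it in ARRB1 siRNA cells and 1 in control siRNA cells (none at 2-fold in either), where 6.86% and 4.7% of the expressed genes did. At 3-fold 2 genes passed in the nicotine treated pair and 3 in the serum starved pair, where 0.455% and 0.447% did. Of 300 values of single genes under the alternatives to scaling, floor and probe sets, 286 moved by less than the SD of their signal and 14 moved by more, 6 of them with the floor at the median and 8 with the median over probe sets. Of the values at 2-fold or more, none changed sign. No value moved by more than the SD with centring or quantile normalization. The floor at the 25th percentile (16.5) and leaving out _x_at probe sets could change no value. Every signal of the brightest probe sets was above that floor, the lowest being 22.7, and none of these is an _x_at probe set. Nor could the median over probe sets change the 5 genes with 1 probe set. The count of 286 includes these fixed values. Over all 19775 genes, with no filter on low signals, 16.6% differed by 2-fold either way between siRNAs in the nicotine treated pair and 15.4% in the serum starved pair, against 2.28% and 1.80% of the expressed genes, and 3.74% against 0.495% did so the same way in both pairs. For nicotine these percentages were 15.9% against 1.45% in ARRB1 siRNA cells and 15.1% against 1.05% in control siRNA cells. Above the 75th percentile of signal they were between 0.0613% and 0.846%. The size of the siRNA differences of MMP1 and MMP10 rests on their low signals on the control siRNA arrays. The number of arrays limits what can be read from all differences. The causes of these changes were not tested.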
